A study of Arabidopsis thaliana with 12 samples.

Results

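Transcript elongation and polymerase CTD factors were followed in Arabidopsis thaliana plants with an altered gene for TFIIF alpha. They are 10 of the 33602 genes in the count table, listed by gene identifier with earlier results of these data known: TFIIS (AT2G38560), SPT4-2 (AT5G63670), SPT5-2 (AT4G08350), SPT6L (AT1G65440), CPL3 (AT2G33540), CPL4 (AT5G58003), CDKC;1 (AT5G10270), CDKC;2 (AT5G64960), SPT16 (AT4G10710) and SSRP1 (AT3G28730). The deposited annotation lists SPT5-2 as GTA02, SPT6L as GTB1 and SSRP1 as a high mobility group gene, and gives the other 7 the same or closely similar names. All 10 passed the filter on low counts in both comparisons.

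RNA came from the aerial parts of plants 6 days old, with 3 libraries in each of 4 groups. The mutant tfIIfα1 was set against the wild type whose titles read 1171WTCol3, both prepared with a stranded mRNA kit. The mutant tfIIfα2 was set against the wild type titled WTCol0, both made from total RNA with a stranded kit after depletion of ribosomal RNA. All plants were grown on medium with 1% sucrose under 16 h of light and 8 h of dark, after 3 days at 4 °C. The genotype labels spell the mutants tflfalpha-1 and tflfalpha-2, and they do not give the kind of mutation in the TFIIF alpha gene, RAP74 (AT4G12610). Each allele was measured with its own kit and its own wild type, so allele, kit and wild type cannot be told apart.

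RNA polymerase II carries on its largest subunit a long tail of repeats, the C-terminal domain or CTD. Kinases phosphorylate this tail as the polymerase leaves the promoter and elongates, phosphatases remove the phosphate so that the enzyme can be used again, and elongation factors and histone chaperones help it along the gene and through nucleosomes. TFIIF is a general initiation factor, and in yeast and human cells its RAP74 subunit binds FCP1, the CTD phosphatase to which plant CPL3 and CPL4 are related.

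Depth ran from 55915638 to 66711096 counts per mRNA library. It ran from 33292996 to 37456773 counts per total RNA library, of which 12069295 to 14652749 fell on nuclear genes. The headers of 2 of the 3 tfIIfα1 columns name the other allele and were placed in the group by their run prefix. The share of even counts among nonzero genes was 47.7% to 48.1% in the total RNA libraries and higher in all mRNA libraries. The 2 libraries with such headers, called a and b here, had a larger share (72.2% and 69.6%) than the other mRNA libraries (57.6% to 61.5%). Each call of a gene named in the tfIIfα1 comparison is therefore also given without both, where the lone mutant library is assumed to vary like the others. RAP74 stood at 14.3, 16.5 and 15.9 CPM (counts scaled to library size after TMM normalization) in tfIIfα1, against 21.3, 21.2 and 18.4 CPM in wild type. Its log2 fold change was -0.38 ± 0.08 (adjusted p = 0.00217, edgeR), and -0.50 (adjusted p = 0.00659) without libraries a and b. It stood at 4.84, 6.03 and 5.78 CPM in tfIIfα2, against 8.06, 7.58 and 8.06 CPM in wild type. In tfIIfα2 it did not pass the test (-0.51 ± 0.12, adjusted p = 0.0659, edgeR). It passed with the replicate number as a block (-0.52 ± 0.11, adjusted p = 0.0168, edgeR). It also passed in 1 edgeR fit over 12 libraries (-0.51, adjusted p = 0.00872) and with DESeq2 (-0.51, adjusted p = 0.0481). It did not pass in 11 of 15 alternatives. Among these were limma-voom (adjusted p = 0.0672) and every fit with 1 library left out (adjusted p = 0.111 to 0.183, edgeR). The mutant libraries were below the wild-type libraries in both kits, where groups did not overlap for 49.4% of all tested genes in the mRNA kit and for 28.7% in the total RNA kit. These reads do not show where a mutation lies. The 5 markers of green tissue summed to 74410 to 76120 CPM in tfIIfα1 against 68276 to 75930 CPM in wild type, and to 12048 to 20921 CPM in tfIIfα2 against 11522 to 19821 CPM in wild type. Of 7 root markers, 5 had a mean under 1 CPM in tfIIfα1, in its wild type and in tfIIfα2, and 6 in the wild type of the total RNA kit. Almost all of the root sum was PYK10, a beta-glucosidase gene, and the sum ran from 1460 to 1600 CPM in tfIIfα1 against 1331 to 1530 CPM in wild type, and from 855 to 1108 CPM in tfIIfα2 against 584 to 863 CPM in wild type. In tfIIfα1, 2 of the 5 green-tissue markers were called higher and 1 lower, and of 4 root markers tested 1 was called lower; the part of either in the results was not tested. In bulk RNA, a change in the number of cells of a type and a change of RNA per cell cannot be told apart.

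In tfIIfα1, 3 of the 10 transcripts rose: SPT16, a FACT histone chaperone subunit, SPT6L, a histone chaperone that travels with the polymerase, and CPL3, a CTD phosphatase. None fell, and the increases were 1.25-fold to 1.44-fold. The test was edgeR's quasi-likelihood test with a Benjamini-Hochberg adjusted p below 0.05 over all 20371 genes tested, which called 38.4% of these genes (18.7% higher and 19.6% lower). The share of members called higher is thus to be read against a background in which a change was common. The median log2 fold change of the 10 members was 0.09, and that of all tested genes was -0.00.

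In tfIIfα2 none of the 10 passed the same test, which called 3.20% of 18863 genes (1.48% higher and 1.72% lower). DESeq2 called 2 members and limma-voom 0. Of all genes, DESeq2 called 1294, against 603 in edgeR. CPL3 and SPT16 came closest in edgeR, both with an unadjusted p below 0.05, and their point estimates of 1.41-fold and 1.29-fold were near those of tfIIfα1. With the replicate number of the libraries as a block, CPL3 and SPT16 were both called higher and none lower, while the fit called 18.7% of all genes (9.56% higher and 9.18% lower). In that same blocked fit the only 2 root markers tested, PYK10 and RCI3, were higher in tfIIfα2 as well (log2 fold change 0.44, adjusted p = 0.0344, and 0.95, adjusted p = 0.0148, edgeR), and their part in the result was not tested. The member median was 0.10, beside -0.00 for all tested genes.

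**Figure D1:**
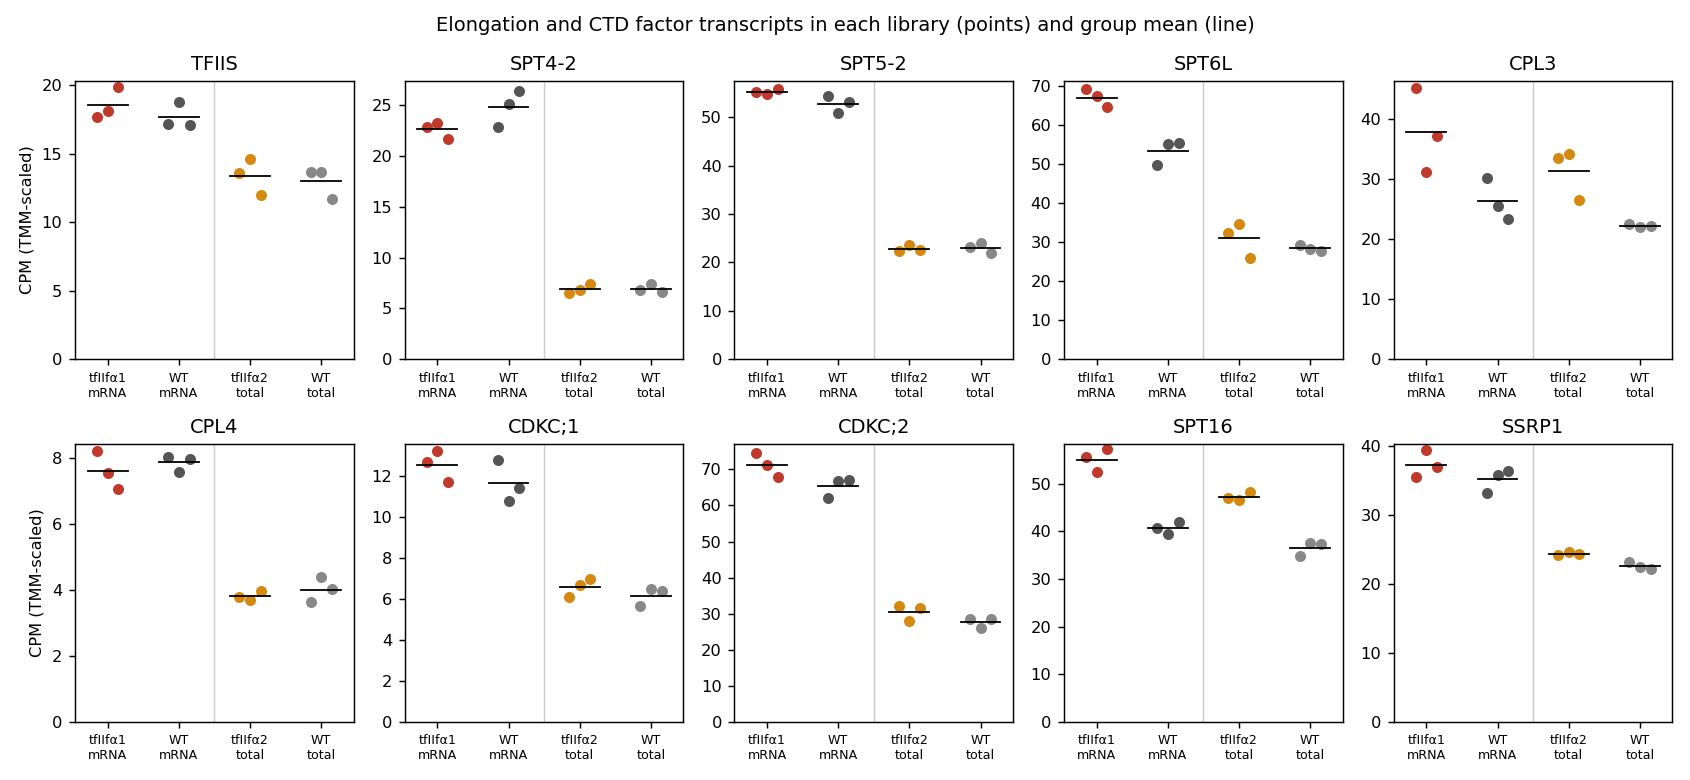
Level of each elongation or CTD factor transcript in CPM (vertical axes, from 0) in every library, with tfIIfα1 left of its wild type (mRNA kit) and tfIIfα2 left of its wild type (total RNA kit). Points are libraries and lines are group means (n = 3). SPT16 and CPL3 lay higher in all mutant libraries than in all wild-type libraries of the same kit, and SPT6L did so in the mRNA kit.

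The FACT complex, a dimer of SPT16 and SSRP1, takes apart and rebuilds nucleosomes around the moving polymerase. SPT16 stood at 55.6, 52.4 and 57.3 CPM in tfIIfα1 libraries 1, a and b, against 40.7, 39.4 and 42 CPM in wild type. Every mutant library was above every wild-type library. The log2 fold change was 0.44 ± 0.06 (SE, n = 3 each; adjusted p = 8.4e-05, edgeR), and it was 0.45 (adjusted p = 0.00143) without libraries a and b. In the total RNA kit SPT16 stood at 47.1, 46.5 and 48.3 CPM in tfIIfα2, against 34.9, 37.5 and 37.3 CPM in wild type. The groups were again apart, with a log2 fold change of 0.37 ± 0.09 (adjusted p = 0.0689, edgeR), or 0.37 ± 0.08 with the block (adjusted p = 0.0144). The 3 same-numbered pairs gave log2 ratios of 0.43, 0.31 and 0.37, all of them higher in the mutant.

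SSRP1, the other FACT subunit, stood at 35.4, 39.4 and 36.9 CPM in tfIIfα1, against 33.2, 35.8 and 36.3 CPM in wild type. The groups overlapped, and the log2 fold change was 0.09 ± 0.07 (adjusted p = 0.331, edgeR; 95% interval -0.06 to 0.23). In the total RNA kit SSRP1 stood at 24.1, 24.6 and 24.3 CPM in tfIIfα2, against 23.1, 22.4 and 22.1 CPM in wild type. Here the libraries did not overlap, but the difference was small at 0.11 ± 0.09 on the log2 scale (adjusted p = 0.516, edgeR) and was not called with the block either.

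SPT6L is one of 2 SPT6 genes of Arabidopsis. It stood at 69.1, 67.5 and 64.5 CPM in tfIIfα1, against 49.7, 55.1 and 55.4 CPM in wild type. The lowest mutant library was above the highest wild-type library, and the log2 fold change was 0.33 ± 0.06 (adjusted p = 0.00105, edgeR), or 0.37 (adjusted p = 0.00699) without libraries a and b. In the total RNA kit SPT6L stood at 32.3, 34.7 and 25.9 CPM in tfIIfα2, against 29.2, 28.3 and 27.6 CPM in wild type. Replicate 3 of tfIIfα2 lay below all wild-type libraries and the other two lay above them. The log2 fold change was 0.13 ± 0.13 (adjusted p = 0.6, edgeR; 95% interval -0.17 to 0.42), and it was 0.24 without replicate 3 of tfIIfα2 and 0.03 without replicate 2. The other SPT6 gene, AT1G63210, was nearly silent, with 2, 6 and 4 counts in the tfIIfα1 libraries against 0 counts in each wild-type mRNA library. In the total RNA kit it had 10, 12 and 7 counts in tfIIfα2 against 11, 4 and 3 in wild type, with overlapping groups. It was too low to test in both kits.

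CPL3 removes phosphate from the CTD. It stood at 45.1, 31.2 and 37.1 CPM in tfIIfα1 libraries 1, a and b, against 30.2, 25.4 and 23.3 CPM in wild type. The groups were apart, though library a lay close to wild-type replicate 1. The log2 fold change was 0.52 ± 0.12 (adjusted p = 0.00262, edgeR), which was the largest point estimate of the 10. It depended on the libraries more than the others did: it was 0.78 (adjusted p = 4.4e-04) without libraries a and b, and 0.37 (adjusted p = 0.0142) without library 1. In the total RNA kit CPL3 stood at 33.4, 34.1 and 26.4 CPM in tfIIfα2, against 22.4, 22 and 22.2 CPM in wild type. All mutant libraries were above a tight wild-type group, with a log2 fold change of 0.50 ± 0.12 (adjusted p = 0.0706, edgeR), or 0.49 ± 0.10 with the block (adjusted p = 0.0115). The 3 pairs gave log2 ratios of 0.58, 0.63 and 0.25.

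CPL4, its relative, had the lowest level per length of the 10. It stood at 8.21, 7.56 and 7.08 CPM in tfIIfα1, against 8.04, 7.59 and 7.99 CPM in wild type, and at 3.8, 3.69 and 3.98 CPM in tfIIfα2, against 3.62, 4.38 and 4.03 CPM in wild type. The groups overlapped in both kits. The log2 fold changes were -0.05 ± 0.09 and -0.07 ± 0.13 (adjusted p = 0.73 and 0.808, edgeR), with 95% intervals of -0.25 to 0.16 in tfIIfα1 and -0.36 to 0.23 in tfIIfα2.

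CDKC;1 and CDKC;2 are the CTD kinases that, with T-type cyclins, form the plant counterpart of P-TEFb. CDKC;2 stood at 74.7, 71.2 and 67.8 CPM in tfIIfα1, against 62, 66.9 and 67.1 CPM in wild type. The groups were narrowly apart, and the log2 fold change of 0.12 ± 0.06 was not called (adjusted p = 0.135, edgeR). In the total RNA kit it stood at 32.2, 28 and 31.5 CPM in tfIIfα2, against 28.5, 26 and 28.4 CPM in wild type, with overlapping groups and a log2 fold change of 0.15 ± 0.10 (adjusted p = 0.451, edgeR). CDKC;1 stood at 12.7, 13.2 and 11.7 CPM in tfIIfα1, against 12.8, 10.8 and 11.4 CPM in wild type, and at 6.08, 6.66 and 6.97 CPM in tfIIfα2, against 5.63, 6.46 and 6.4 CPM in wild type. Its groups overlapped in both kits, with log2 fold changes of 0.10 ± 0.09 and 0.09 ± 0.12 (adjusted p = 0.408 and 0.689, edgeR).

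SPT4 and SPT5 form a clamp on the elongating polymerase. SPT5-2 stood at 55.3, 54.8 and 55.8 CPM in tfIIfα1, against 54.4, 50.9 and 53.1 CPM in wild type, and at 22.4, 23.5 and 22.5 CPM in tfIIfα2, against 23.1, 24 and 22 CPM in wild type. The mRNA groups were narrowly apart and the total RNA groups overlapped, with log2 fold changes of 0.07 ± 0.06 and -0.01 ± 0.09 (adjusted p = 0.405 and 0.952, edgeR). SPT4-2 stood at 22.9, 23.3 and 21.7 CPM in tfIIfα1, against 22.9, 25.1 and 26.4 CPM in wild type, and at 6.49, 6.82 and 7.42 CPM in tfIIfα2, against 6.83, 7.4 and 6.58 CPM in wild type. Its groups overlapped in both kits, with log2 fold changes of -0.13 ± 0.07 and -0.01 ± 0.11 (adjusted p = 0.161 and 0.982, edgeR).

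TFIIS restarts a stalled polymerase by stimulating cleavage of the RNA in its active site. It stood at 17.7, 18.1 and 19.9 CPM in tfIIfα1, against 17.2, 18.8 and 17.1 CPM in wild type, and at 13.6, 14.6 and 12 CPM in tfIIfα2, against 13.7, 13.7 and 11.7 CPM in wild type. The groups overlapped in both kits, with log2 fold changes of 0.07 ± 0.08 and 0.04 ± 0.12 (adjusted p = 0.513 and 0.893, edgeR). The 95% intervals, -0.09 to 0.23 in tfIIfα1 and -0.24 to 0.31 in tfIIfα2, leave room for changes of that size in either direction.

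**Figure D2:**
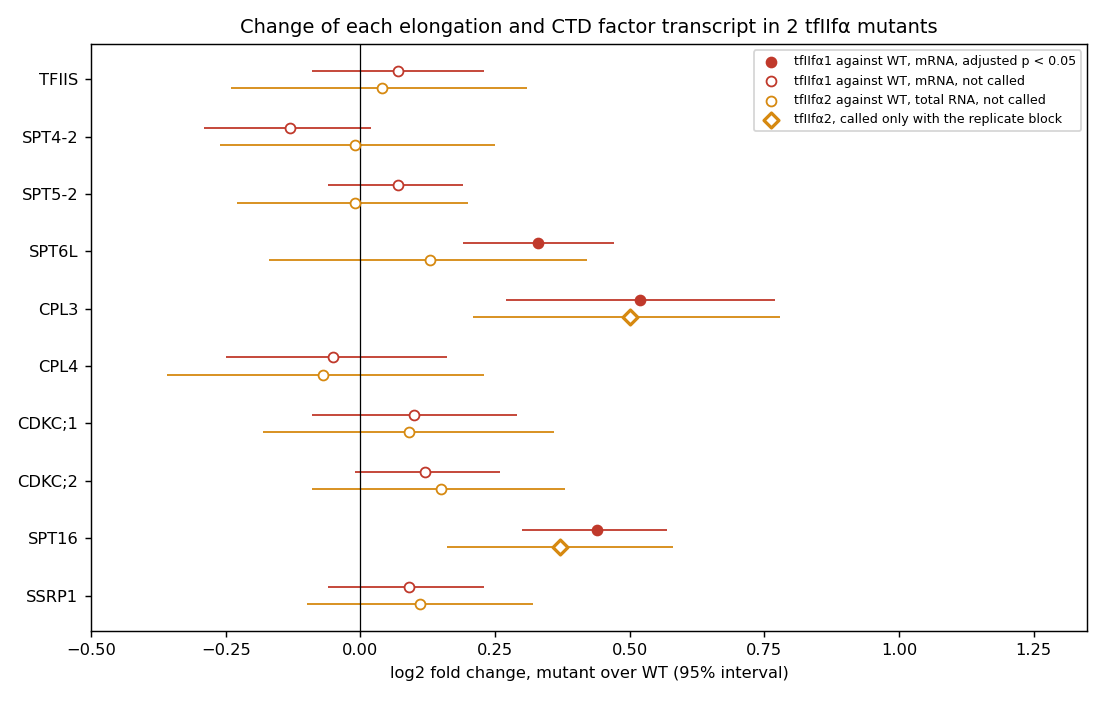
Log2 fold change of each member (horizontal axis, mutant over wild type) with its 95% interval, for tfIIfα1 (upper, red) and tfIIfα2 (lower, orange). Filled circles are calls at an adjusted p below 0.05, and diamonds are called only with the replicate block. SPT6L, CPL3 and SPT16 are called in tfIIfα1 at 0.33, 0.52 and 0.44, and CPL3 and SPT16 sit at 0.50 and 0.37 in tfIIfα2.

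Counted by library, 5 of the 10 members did not overlap between groups in the tfIIfα1 comparison (SPT5-2, SPT6L, CPL3, CDKC;2 and SPT16), all of them higher, where 49.4% of all tested genes did not overlap. In the tfIIfα2 comparison 3 did not overlap (CPL3, SPT16 and SSRP1), all higher, where 28.7% of all tested genes did not. Neither share stood far from that of genes in general.

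The changes of the 10 members in the 2 alleles were then set against each other in a single fit over 12 libraries. No difference was called for any of the 10 (0 called, 0 with an unadjusted p below 0.05, smallest adjusted p = 0.71, edgeR), where the fit called 0.772% of all genes. On simulated counts of 20602 genes this test recovered only 3.03% of 1.5-fold differences, a share that was not computed for the 10 members alone. The 95% intervals of the 10 members reached no further than -0.40 (CPL3) and 0.51 (SPT6L), short of a 1.5-fold difference in either direction. Smaller differences lay within these intervals, so the lack of calls does not show that the alleles are alike. The differences between the log2 fold changes, tfIIfα1 minus tfIIfα2, ran from -0.12 for SPT4-2 to 0.21 for SPT6L. For SPT6L the 95% interval was -0.09 to 0.51, so the call in 1 allele and not in the other does not show a difference between them. For CPL3 it was -0.40 to 0.46 and for SPT16 -0.14 to 0.29.

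Partners or relatives among the members, 4 pairs in all, were also compared as ratios of raw counts within each library, which needs no library scaling. SSRP1 over SPT16 was 0.636, 0.752 and 0.644 in tfIIfα1, against 0.816, 0.907 and 0.863 in wild type, and 0.51, 0.529 and 0.502 in tfIIfα2, against 0.661, 0.596 and 0.592 in wild type. The ratio of the 2 FACT subunits was thus lower in every mutant library of both kits, with differences of -0.35 in tfIIfα1 and -0.26 in tfIIfα2 on the log2 scale. CPL4 over CPL3 was 0.182, 0.242 and 0.191 in tfIIfα1, against 0.266, 0.299 and 0.343 in wild type, and 0.114, 0.108 and 0.151 in tfIIfα2, against 0.161, 0.199 and 0.182 in wild type. It too was lower in every mutant library, with differences of -0.56 and -0.55 on the log2 scale. These ratios rest on the same counts as the changes of the single genes above. How often ratios of other gene pairs lie apart in this way was not counted.

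**Figure D3:**
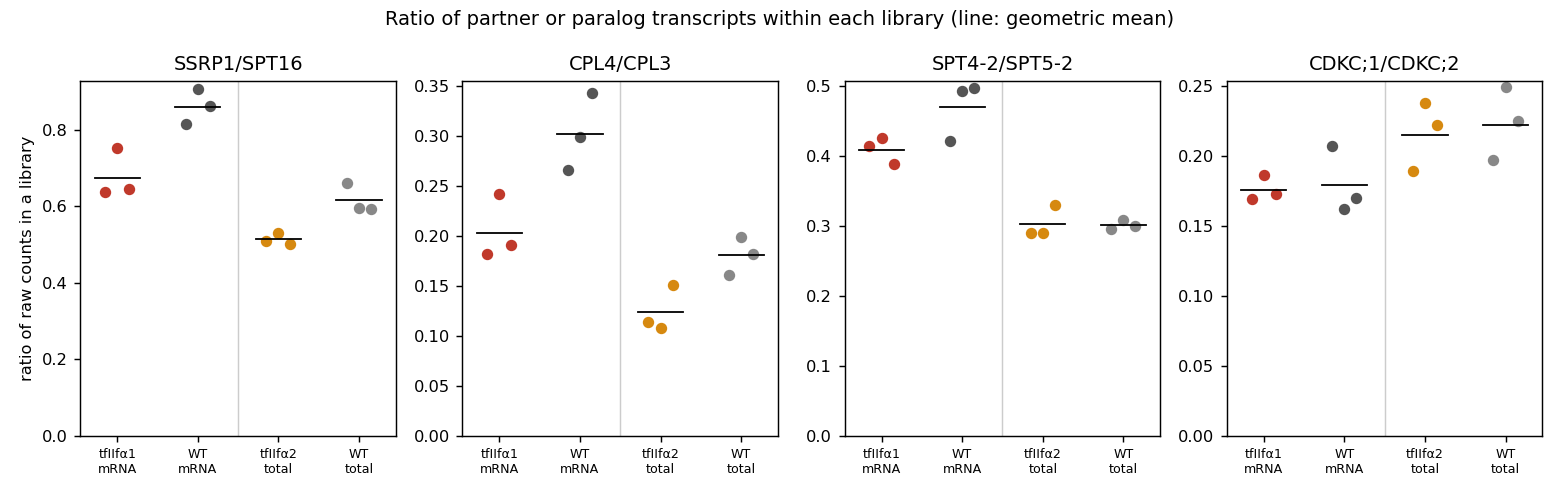
Ratio of the raw counts of 2 transcripts within each library (vertical axes, from 0) for 4 pairs, with each mutant left of the wild type of its kit. Points are libraries (n = 3 per group) and lines are geometric means. SSRP1/SPT16 and CPL4/CPL3 do not overlap between mutant and wild type in either kit, while the other two ratios overlap in both.

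Each of these 4 differences had p = 0.1 in an exact two-sided permutation test, the smallest that 3 against 3 libraries can give, and 0.2 when adjusted over the 8 ratios tested. The ratio of SPT4-2 to SPT5-2 differed by -0.20 in tfIIfα1 (p = 0.2, exact permutation) and by 0.01 in tfIIfα2 (p = 1). The ratio of CDKC;1 to CDKC;2 differed by -0.02 in tfIIfα1 (p = 0.9, exact permutation) and by -0.05 in tfIIfα2 (p = 0.7). The libraries of both groups overlapped for these pairs.

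Levels were compared between genes per kb of exon, since longer transcripts gather more reads. The member with the highest level was 7.31-fold above the lowest in tfIIfα1, against 7-fold in wild type, and 6.21-fold in tfIIfα2, against 5.37-fold in wild type. In tfIIfα1 the order ran CDKC;2 (31.8 ± 1.55 CPM per kb, SD, n = 3), SPT4-2, SSRP1, SPT5-2, SPT16, SPT6L, TFIIS, CPL3, CDKC;1 and CPL4 (4.35 ± 0.325). The neighbours SSRP1 and SPT5-2, and CPL3 and CDKC;1, overlapped in range. In the wild type of the mRNA kit the order ran SPT4-2 (31.5 ± 2.22), CDKC;2, SSRP1, SPT5-2, TFIIS, SPT16, SPT6L, CDKC;1, CPL3 and CPL4 (4.5 ± 0.142). Here SPT4-2 and CDKC;2, SSRP1 and SPT5-2, TFIIS, SPT16 and SPT6L, and CDKC;1 and CPL3 overlapped with their neighbours.

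In tfIIfα2 the order ran CDKC;2 (13.6 ± 1 CPM per kb), SPT16, SSRP1, SPT4-2, TFIIS, SPT5-2, CPL3, SPT6L, CDKC;1 and CPL4 (2.19 ± 0.084). SPT16 overlapped with SSRP1, SPT5-2 with CPL3, and CPL3 with SPT6L. In the wild type of the total RNA kit it ran CDKC;2 (12.3 ± 0.636), SSRP1, SPT4-2, SPT16, TFIIS, SPT5-2, SPT6L, CPL3, CDKC;1 and CPL4 (2.29 ± 0.217), with overlaps between SPT4-2 and SPT16 and between TFIIS and SPT5-2. SPT16 thus stood above SSRP1 in tfIIfα2 by less than the spread between libraries, while SSRP1 stood above SPT16 in both wild types without overlap. CPM in the 2 kits were scaled within each kit and are not compared further.

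**Figure D4:**
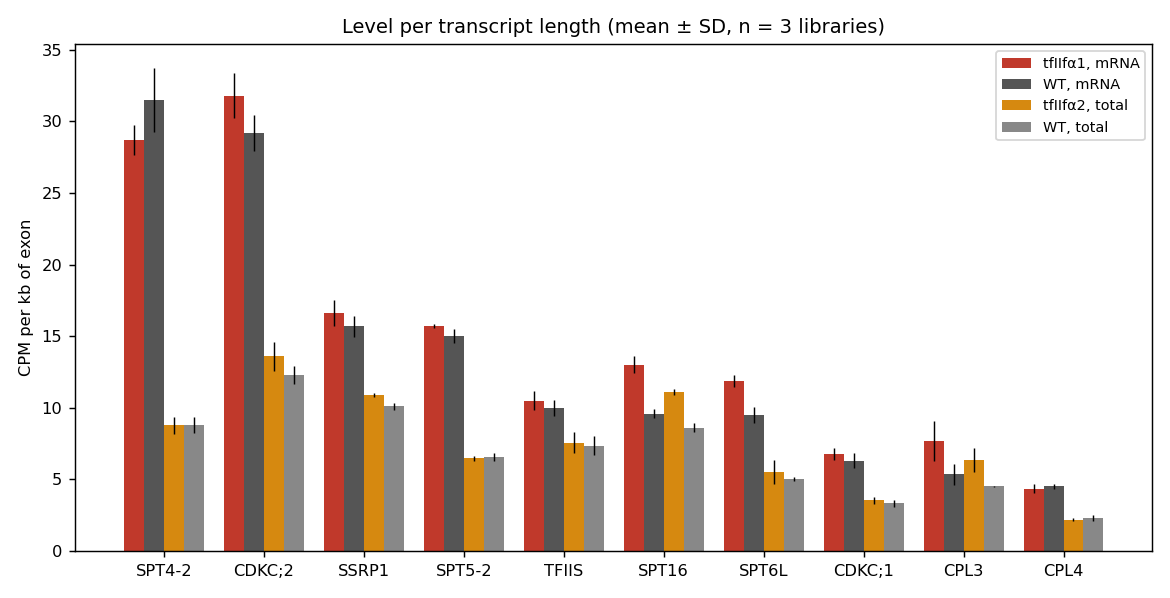
Mean level of each member in CPM per kb of exon (vertical axis, from 0), with the SD over 3 libraries as error bars, for tfIIfα1, its wild type, tfIIfα2 and its wild type from left to right. SPT4-2 and CDKC;2 are the highest in the mRNA kit, and CPL4 is the lowest in all 4 groups.

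A further 38 companion genes of elongation and the CTD, in 6 lists, were read from the same fits. In tfIIfα1, 35 of the 38 passed the filter, 9 rose and 4 fell, beside the 18.7% and 19.6% of all genes. Without libraries a and b, 7 were called higher and 3 lower. In tfIIfα2, 34 passed the filter and none was called (7 with an unadjusted p below 0.05), and with the block 1 rose and 4 fell, beside 9.56% and 9.18% of all genes. The median log2 fold change of the companions was 0.03 in tfIIfα1 and 0.05 in tfIIfα2.

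The PAF1 complex travels with the polymerase and promotes histone marks of transcribed genes. Of its 6 genes, 4 rose in tfIIfα1 and 0 fell, with a list median of 0.24, where 18.7% of all tested genes rose and 19.6% fell. CDC73 stood at 17.2, 15.6 and 14.8 CPM in tfIIfα1, against 11.1, 13.6 and 12.1 CPM in wild type (log2 fold change 0.37 ± 0.09, adjusted p = 0.00442, edgeR). ELF7, the PAF1 subunit itself, stood at 35.7, 34.8 and 35.1 CPM, against 29.5, 29.2 and 29.7 CPM in wild type (0.26 ± 0.06, adjusted p = 0.0036, edgeR). Mutant and wild-type libraries were apart for both, and without libraries a and b the log2 fold changes were 0.49 (adjusted p = 0.00973) for CDC73 and 0.28 (adjusted p = 0.0264) for ELF7. VIP4 and VIP5, the relatives of yeast LEO1 and RTF1, rose by 0.21 ± 0.07 and 0.27 ± 0.09, but both calls were lost without wild-type replicate 2 and in the fit over 12 libraries. VIP4 also lost its call without library a (0.18) and without both a and b (0.23), and VIP5 without library 1 (0.23), library b (0.21) or wild-type replicate 3 (0.24). Without both a and b, VIP5 was at 0.34 (adjusted p = 0.0224, edgeR). In tfIIfα2 none of the 6 was called, with or without the block, and the list median was 0.23. VIP5 was called higher there with the block and organelle genes removed (0.30, adjusted p = 0.0458, edgeR).

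Elongator is an acetyltransferase complex that was first purified with elongating polymerase and also modifies transfer RNA. ELP3, its catalytic subunit, stood at 22.8, 23.1 and 24.8 CPM in tfIIfα1, against 17.3, 18.5 and 19 CPM in wild type. The groups were apart, and ELP3 rose (log2 fold change 0.37 ± 0.07, adjusted p = 8.6e-04, edgeR, and 0.32, adjusted p = 0.0283, without libraries a and b). ELP2 and ELP5 had log2 fold changes of -0.09 and -0.07 in tfIIfα1 and of -0.24 and -0.21 in tfIIfα2, none of them called. In tfIIfα2, ELP3 stood at 11.2, 10.9 and 13 CPM, against 9.24, 10 and 9.07 CPM in wild type. Its groups did not overlap, but it was not called (0.31 ± 0.11, adjusted p = 0.162, edgeR).

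Among the 3 other CTD phosphatase genes, CPL2 rose in tfIIfα1 to 32.7, 32.8 and 31.1 CPM, against 22.8, 24.4 and 23 CPM in wild type (log2 fold change 0.46 ± 0.06, adjusted p = 6.2e-05, edgeR, and 0.49, adjusted p = 0.00156, without libraries a and b). In tfIIfα2 it stood at 17.4, 18.1 and 15.6 CPM, against 15.4, 13.9 and 12.9 CPM in wild type, and was not called (0.28 ± 0.11, adjusted p = 0.209, edgeR; 0.057 with the block, and 0.0481 with the block and organelle genes removed). CPL1 showed the other pattern. It had a log2 fold change of 0.04 ± 0.07 in tfIIfα1, and in tfIIfα2 it stood at 19.7, 20.6 and 18.5 CPM, against 16.5, 15 and 15.1 CPM in wild type (0.34 ± 0.10, adjusted p = 0.109, edgeR, and 0.029 with the block). The difference between the alleles, tfIIfα1 minus tfIIfα2, was not called for CPL1 (-0.29 ± 0.12, adjusted p = 0.502, edgeR) or for CPL2 (0.19 ± 0.12, adjusted p = 0.691). SSU72, an enzyme of another phosphatase family, had a log2 fold change of -0.02 in tfIIfα1, not called. It stood at 3, 2.84 and 4.11 CPM in tfIIfα2, against 4.8, 4.11 and 4.68 CPM in wild type, with the groups meeting at a single value. It was not called in the fit without the block (-0.45 ± 0.17, adjusted p = 0.18, edgeR) or with the block and organelle genes removed (adjusted p = 0.0539), and it passed narrowly with the block alone (-0.46 ± 0.14, adjusted p = 0.0498).

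Of 12 other CTD kinase and cyclin genes, 11 passed the filter, and in tfIIfα1 1 rose and 1 fell. Both are T-type cyclin genes. CYCT1;5, one of the cyclins that bind CDKC kinases, stood at 33.9, 32.8 and 30.4 CPM in tfIIfα1, against 25.1, 24.4 and 24.5 CPM in wild type (log2 fold change 0.39 ± 0.07, adjusted p = 3.0e-04, edgeR). CYCT1;3 stood at 23.5, 22.9 and 22.6 CPM, against 30.7, 31.2 and 28.6 CPM in wild type (-0.39 ± 0.07, adjusted p = 3.0e-04, edgeR), a call that the fit over 12 libraries did not make. Without libraries a and b, CYCT1;5 was at 0.46 (adjusted p = 0.00178, edgeR) and CYCT1;3 at -0.36 (adjusted p = 0.0143). In tfIIfα2, CYCT1;3 stood at 6.18, 6.25 and 7.13 CPM, against 7.46, 10.6 and 12.1 CPM in wild type, with a log2 fold change of -0.63 ± 0.18 (adjusted p = 0.106, edgeR), or -0.60 ± 0.12 with the block (adjusted p = 0.0127). CYCT1;2, a weakly transcribed cyclin gene, was also called lower there with the block (-0.88 ± 0.25, adjusted p = 0.0439, edgeR, and 0.0847 without the block), at a mean of 0.516 CPM against 0.942 CPM in wild type. CYCH;1, the cyclin of the TFIIH kinase, was not called in either allele (0.21 ± 0.08 in tfIIfα1, adjusted p = 0.0649, edgeR, and 0.23 ± 0.18 in tfIIfα2).

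Of 5 genes for histone H2B ubiquitination and H3K36 methylation, 2 fell in tfIIfα1 and 0 rose, where 19.6% of all tested genes fell and 18.7% rose. They were UBC2 and UBC1, closely related genes for E2 enzymes that act with the ligases HUB1 and HUB2, so reads could be split between them. UBC2 stood at 62.2, 52.6 and 57.9 CPM in tfIIfα1, against 82, 92.3 and 83.3 CPM in wild type (log2 fold change -0.58 ± 0.07, adjusted p = 2.8e-05, edgeR, and -0.46, adjusted p = 0.00266, without libraries a and b). In tfIIfα2 it stood at 16, 16.6 and 17.9 CPM, against 20.7, 24.1 and 27.8 CPM in wild type, and was lower in every library (-0.52 ± 0.13, adjusted p = 0.0727, edgeR, and 0.00664 with the block). UBC1 changed by -0.35 ± 0.07 in tfIIfα1, a call lost without libraries a and b (-0.20) and in the fit over 12 libraries, and by -0.04 ± 0.15 in tfIIfα2. HUB2 and the H3K36 methyltransferase gene SDG8 were not called in either allele, at 0.10 and -0.07 in tfIIfα1 and at -0.05 and -0.13 in tfIIfα2.

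Of the 6 other SPT and IWS genes, KTF1, an SPT5-like factor of RNA-directed DNA methylation, rose in tfIIfα1 to 23.2, 25.1 and 22 CPM, against 18.6, 21 and 18.3 CPM in wild type (log2 fold change 0.28 ± 0.08, adjusted p = 0.0101, edgeR). That call was lost without libraries a and b (0.27). SPT5-1, the other SPT5 gene, fell on few counts, with 18, 20 and 10 counts in tfIIfα1 against 62, 39 and 86 in wild type (-1.86 ± 0.38, adjusted p = 0.00143, edgeR, and -1.78, adjusted p = 0.0342, without libraries a and b). In the total RNA kit SPT5-1 was too low to test, with 25, 7 and 5 counts in tfIIfα2 against 28, 3 and 3 in wild type. IWS1, a partner of SPT6, and SPT4-1 were not called in either allele (0.07 and 0.02 in tfIIfα1, -0.13 and 0.12 in tfIIfα2). IWS2 had 0 counts in all 12 libraries, and CYCT1;1 had 2 counts in library 1 of tfIIfα1 and 0 in the others.

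**Figure D5:**
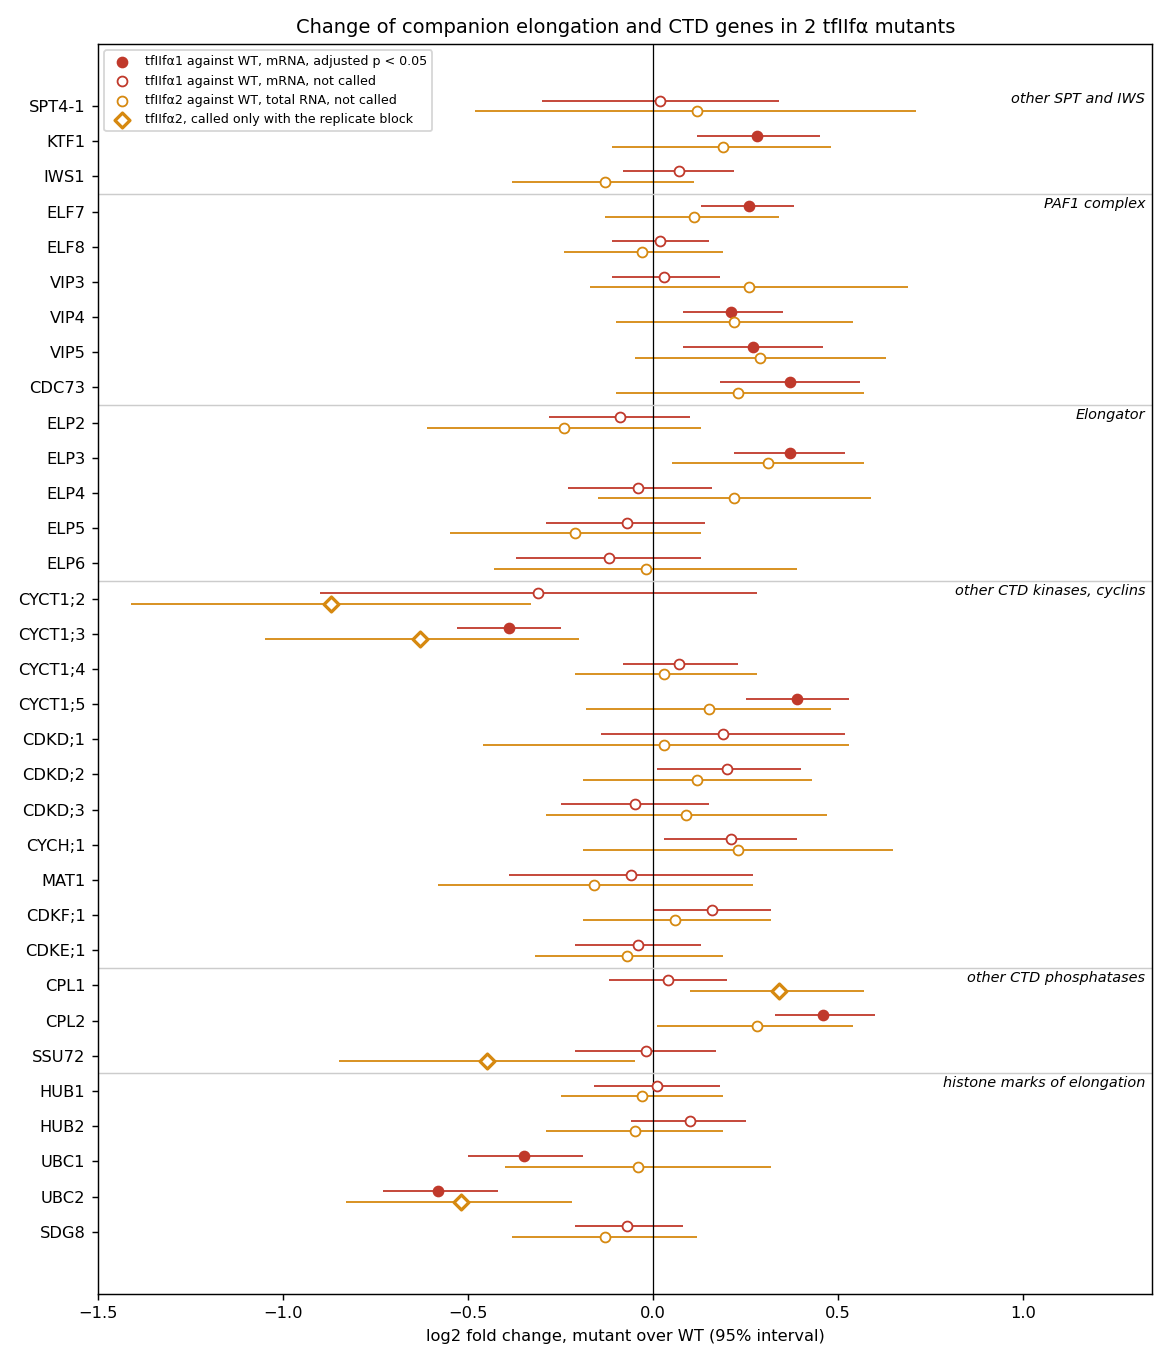
Log2 fold change (horizontal axis, mutant over wild type) with its 95% interval for companion genes tested in both comparisons, by list, with tfIIfα1 above tfIIfα2 for each gene. Filled circles are calls at an adjusted p below 0.05, open circles are not called, and diamonds are called only with the replicate block. The PAF1 list holds 4 red calls and all of them are higher, where 18.7% of all tested genes were called higher in tfIIfα1. Of these calls, those of VIP4 and VIP5 were lost in some alternatives. UBC2 and CYCT1;3 lie left of 0 in both mutants.

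The genes around each member on its chromosome were read as a check on shared local change. SPT16 and SPT5-2 lie on chromosome 4, as does the altered gene RAP74. Whether sharing that chromosome had a part in their values was not tested. The 10 tested genes on each side of SPT16 had a median log2 fold change of -0.01 in tfIIfα1 and -0.03 in tfIIfα2. The medians were -0.03 and -0.06 around SPT6L, and -0.07 and -0.11 around CPL3. Only around CDKC;2 was the median as far from 0 as 0.28 in tfIIfα1 and 0.17 in tfIIfα2. In the TAIR10.1 annotation 4 of the 10 members overlap in span with a gene on the opposite strand, and SPT6L, CPL3 and SPT16 overlap none. CDKC;2 overlaps AT5G64970 by 971 bases, and TFIIS, CDKC;1 and SSRP1 overlap their neighbours by 7, 23 and 32 bases. The strand setting of the counting is not given in the sources used here, so reads of these 4 members and of their neighbours may not be fully apart. The neighbours' own log2 fold changes ran from -0.08 for AT2G38570 to 0.39 for CYP81D11 in tfIIfα1, and from -0.25 to 0.07 for the same genes in tfIIfα2, none of them called. Among the companions described above, ELF7 overlaps a gene on its own strand, and ELP2, ELP3, CPL1, UBC1, UBC2 and SDG8 overlap genes on the opposite strand, so the same limit holds for them.

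The authors' deposited table, which comes from their own processing, gave adjusted p-values below 0.05 for 3 members in tfIIfα1 and for 2 in tfIIfα2, where it called 23% and 16% of 18073 genes. In the authors' deposited table, SPT6L had a log2 fold change of 0.34 in tfIIfα1 (adjusted p = 0.0311) and CPL3 of 0.54 (adjusted p = 0.00404). SPT16 had 0.45 in tfIIfα1 in the authors' deposited table (adjusted p = 8.0e-04) and 0.38 in tfIIfα2 (adjusted p = 0.00949). CPL3 had 0.51 in tfIIfα2 in the authors' deposited table (adjusted p = 0.0115).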

How the data were processed

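Per the submitters' processing notes, the tools named were edgeR 3.20.1, Bowtie2 2.2.9 and FastQC 0.11.5, and the build was TAIR10. The counting tool and its strand setting are not given in the sources used here. The authors deposited raw counts per gene (whole numbers, 33602 genes), and these counts were the values tested. They also deposited log2 fold changes and adjusted p-values of their own comparisons, which are credited where printed. Left out were 6 count columns that match none of the samples, and 18 normalized columns. Groups came from the labels. Titles and headers do not tell the replicate numbers of tfIIfα1 libraries a and b.

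Each allele was tested against the wild type of its kit by quasi-likelihood in edgeR 4.0.16 under R 4.3.3, after filterByExpr and TMM, with p adjusted over all tested genes. The biological coefficient of variation was 0.0827 in tfIIfα1 and 0.184 in tfIIfα2. The allele difference was the interaction in 1 fit over 12 libraries. A standard error is the size of the log2 fold change divided by the root of its F statistic. The scripts were tested on simulated data with 200 changed genes. Of the 1.5-fold changes, 70.7% were recovered in tfIIfα1, 4.29% in tfIIfα2 and 3.03% in the allele difference. Same-numbered total RNA libraries, paired by the numbers in their titles, deviated together (correlations over genes of 0.64, 0.23 and 0.53), so results of a fit blocked on that number are added where a call changes. Replicates differed by more than sampling noise, with a chi-square of 10.1 to 49.8 per degree of freedom. The labels do not say that libraries came from separate cultures, so p-values measure the spread between these samples only.

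Exon lengths, gene order and overlaps came from TAIR10.1, which matched 32835 genes; coordinates are left out, since the authors worked on TAIR10. Promoter and protein sequences were not analysed here. Members and companion lists were chosen with earlier results of these data known. Of each companion list, up to 4 tested genes with the smallest p in either comparison are named; genes too low to test were named after their values were seen. From the lists, 1 gene without a deposited name or description was left out, and the values of 1 other gene are not reported here. Alternatives were RLE normalization, other count filters, DESeq2 1.42.0, limma-voom (limma 3.58.1), 1 fit over 12 libraries, removal of organelle genes or of a stretch of chromosome 4 near RAP74, a threshold of 0.01, the replicate block, and each library left out in turn.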

Additional observations from a re-analysis of the deposited data

How the results depend on the processing

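The 3 members called in tfIIfα1 stayed called and higher under every alternative run, with log2 fold changes of 0.28 to 0.37 for SPT6L, 0.37 to 0.78 for CPL3 and 0.41 to 0.47 for SPT16. No paired analysis was possible for tfIIfα1 because the replicate numbers of 2 of its libraries are ambiguous. In tfIIfα2 the count of members called was 2 (CPL3 and SPT16) under DESeq2, 1 fit over 12 libraries, the replicate block, and the block with organelle genes removed, and 0 under the other alternatives. Companions called in tfIIfα2 numbered 1 under DESeq2, 6 in 1 fit over 12 libraries, 5 with the block and 6 with the block and organelle genes removed. Beyond the calls given in the report, RAP74 included, the block changed no other call on the genes named there.

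Of all genes, 7820 were called in tfIIfα1, against 4329 in 1 fit over 12 libraries, 4838 without libraries a and b and 5137 at a threshold of 0.01. In tfIIfα2 603 were called, against 1294 with DESeq2, 2926 in 1 fit over 12 libraries, 3535 with the replicate block, 3523 with the block and organelle genes removed, 28 at a threshold of 0.01, and 4 to 169 with 1 library left out. The cause was not tested.

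Sign changes touched only values that were called in no setting. Without libraries a and b, the tfIIfα1 values were -0.00 for TFIIS, 0.06 for CPL4, -0.22 for SPT4-1 and -0.09 for CPL1. SPT4-2 in tfIIfα2 was 0.01 with RLE, and 0.00 with the CPM filter, with organelle genes removed and with the block and organelle genes removed. With 1 library left out, tfIIfα1 values ran from -0.10 to 0.00 for CPL4, -0.12 to 0.13 for SPT4-1, -0.00 to 0.11 for CPL1 and -0.08 to 0.05 for SSU72. The tfIIfα2 values ran from -0.04 to 0.10 for TFIIS, -0.06 to 0.04 for SPT4-2, -0.05 to 0.01 for SPT5-2, -0.13 to 0.00 for CPL4, -0.11 to 0.28 for SPT4-1, -0.17 to 0.07 for UBC1 and -0.10 to 0.00 for HUB2. The allele differences ran from -0.04 to 0.10 for TFIIS, -0.11 to 0.16 for CPL3, -0.07 to 0.09 for CPL4, -0.06 to 0.08 for CDKC;1, -0.09 to 0.02 for CDKC;2 and -0.05 to 0.02 for SSRP1. What part depth, spread, kit or allele had in the smaller count of calls in tfIIfα2 cannot be told apart.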
